A study of Mus musculus with 2 samples.

Results

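The chromatin accessibility peaks in and around the 4 mouse Hox clusters numbered 820 of the 229480 peaks in the library (0.357%). They were taken by position alone: every peak between 500 kb below the lowest and 500 kb above the highest gene start of Hoxa, Hoxb, Hoxc or Hoxd. Of these, 155 lay inside a cluster, between its lowest and highest Hox start, and 665 lay in the flanks. The Hoxa window held 209 peaks (42 inside), the Hoxb window 270 (52 inside), the Hoxc window 230 (35 inside) and the Hoxd window 111 (26 inside). At the 8 outer edges of the windows, the last peaks taken had 0.557 to 7.56 CPM (peak counts per 1000000, median 1.11) and the first peaks left out had 0.412 to 115 (median 3.10).

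The nuclei came from whole mouse embryos at embryonic day 7.0, pooled and dissociated with TrypLE, and each nucleus was read for both nuclear RNA and open chromatin. There was 1 library per assay, with no treatment, no mutant and no second stage, so the only groups were the cell classes within it. The title, age and protocol fields name embryos, whereas the tissue and cell type fields name small intestine, distal colon and goblet cells, and the strain field names RedMUC298trTg. In the RNA, 8 markers of the gut lining and its goblet cells summed to 1.88 CPM (UMIs per 1000000), against 3416 for 8 visceral endoderm markers and 1722 for 8 epiblast markers. Of decidua, the maternal tissue around the embryo, 6 markers summed to 12.6 CPM. How many embryos were pooled, and which nucleus came from which, is not given in the sources used here.

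Hox genes encode homeodomain transcription factors that give cells their position along the head-to-tail axis. They sit side by side in 4 clusters, with the genes of a cluster transcribed in the same direction, and are switched on in order from the 3′ end (such as Hoxb1 and Hoxd1) to the 5′ end (the group 13 genes) as gastrulation proceeds. Before that, the clusters are typically covered by Polycomb repressive chromatin, and enhancers in the surrounding gene deserts act on them from outside. Extraembryonic mesoderm and the posterior streak are among the earliest sites of Hox transcription in the embryo.

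The starts of 4 Hox genes are shown because the results below turn on their promoter peaks: Hoxd11 has the inside peak with the largest counts of its cluster, Hoxb1 and Hoxd1 have the most RNA of their clusters, and Hoxa13 is open in classes where most of the clusters are low. Each run is the 250 bases before the RefSeq start (GRCm38.p6, the patched form of mm10), on the gene's own strand from 5′ to 3′, with CG pairs in capitals. All 250 bases lay within the gene's promoter peak in each case. The Hoxd11 run is chr2:74682073-74682322 (+ strand) with 20 CG pairs, Hoxb1 is chr11:96365508-96365757 (+ strand) with 7, Hoxa13 is chr6:52260881-52261130 (- strand) with 35, and Hoxd1 is chr2:74762730-74762979 (+ strand) with 24.
Hoxd11: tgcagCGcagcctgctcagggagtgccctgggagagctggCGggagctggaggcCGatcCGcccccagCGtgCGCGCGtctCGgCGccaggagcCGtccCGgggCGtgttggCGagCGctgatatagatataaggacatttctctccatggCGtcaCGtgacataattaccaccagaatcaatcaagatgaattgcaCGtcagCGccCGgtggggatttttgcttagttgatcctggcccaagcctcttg
Hoxb1: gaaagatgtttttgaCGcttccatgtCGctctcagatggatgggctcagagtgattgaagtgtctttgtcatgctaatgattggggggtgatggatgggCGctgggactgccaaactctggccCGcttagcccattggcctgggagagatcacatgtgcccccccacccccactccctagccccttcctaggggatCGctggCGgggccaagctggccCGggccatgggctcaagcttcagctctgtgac
Hoxa13: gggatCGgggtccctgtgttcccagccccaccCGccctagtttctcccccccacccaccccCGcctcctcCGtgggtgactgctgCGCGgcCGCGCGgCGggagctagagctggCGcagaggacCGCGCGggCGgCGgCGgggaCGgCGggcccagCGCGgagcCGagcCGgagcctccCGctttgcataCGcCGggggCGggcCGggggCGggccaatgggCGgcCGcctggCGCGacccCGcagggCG
Hoxd1: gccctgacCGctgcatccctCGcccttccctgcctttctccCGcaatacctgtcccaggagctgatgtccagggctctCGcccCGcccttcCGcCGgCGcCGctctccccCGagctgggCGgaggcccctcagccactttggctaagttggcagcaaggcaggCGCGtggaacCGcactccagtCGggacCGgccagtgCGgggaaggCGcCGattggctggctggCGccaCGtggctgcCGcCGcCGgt

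RefSeq windows of 250 bases before to 50 after a start were at hand for 24 starts of 22 of the 39 Hox genes, and 16 of these windows overlapped a member peak. Over the 250 upstream bases the Hox windows held a median of 12.5 CG pairs (2 to 35), against 6 in all 32851 windows. A core of the CTCF motif occurred on either strand in 4 of the 24 windows of 300 bases (Hoxa11, Hoxc4, Hoxd3 and Hoxd11), or 16.7%, against 8.61% of all windows. The Cdx-type letters TTTATGG (2.75% of all windows) were found in the Hoxd4 window, and TTTATTG (4.60%) in those of Hoxb8 and Hoxd4. Letters of the TCF/LEF kind, CTTTGAA, were found at Hoxa11 and Hoxd12 and CTTTGAT at Hoxd8 (5.14% and 3.73% of all windows), and the T-box letters TCACACC at Hoxd9 (3.98%). The searched GATA letters (AGATAA, 11.2% of all windows), the octamer (ATGCAAAT, 1.74%) and 2 direct repeats of the retinoic acid receptor kind (0.0335% and 0.00913%) were in none of the 24. All were searched on both strands, and TTTATGG and TTTATTG share their opening letters, as do CTTTGAA and CTTTGAT. Each match is a description of letters, not of a bound site.

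After filters on depth and doublets, 12796 of 15341 nuclei were kept, with medians of 10471 UMIs and 17350 peak counts. The same 15341 barcodes served both assays. Nuclei were grouped by RNA with every Hox gene left out of the grouping, which gave 22 clusters, and 15 of them (10457 nuclei) could be named, as 9 classes: 2872 epiblast-like, 1430 primitive streak-like, 1591 embryonic mesoderm-like, 880 of anterior streak, node and definitive endoderm (below, anterior streak-like), 305 extraembryonic mesoderm-like, 319 haemato-endothelial-like, 1760 visceral endoderm-like, 207 parietal endoderm-like and 1093 extraembryonic ectoderm-like nuclei. Neither the peaks nor the Hox RNA entered the classes. Some named clusters also scored for a neighbouring class (score: mean log2 fold of a marker list over other nuclei). The primitive streak-like cluster scored 0.888 for its own list and 0.465 for epiblast. An embryonic mesoderm-like cluster of 862 nuclei scored 2.65 for its own list and 1.74 for primitive streak. Median peak counts per nucleus ran from 16809 in the haemato-endothelial-like to 22558 in the primitive streak-like class. With 1 library there is no replicate, no test was made, and the 95% intervals given are exact and cover counting error of estimated fragments only. Levels are counts per 1000000 peak counts of the class (CPM), and a fold compares a class with all other kept nuclei.

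**Figure D1:**
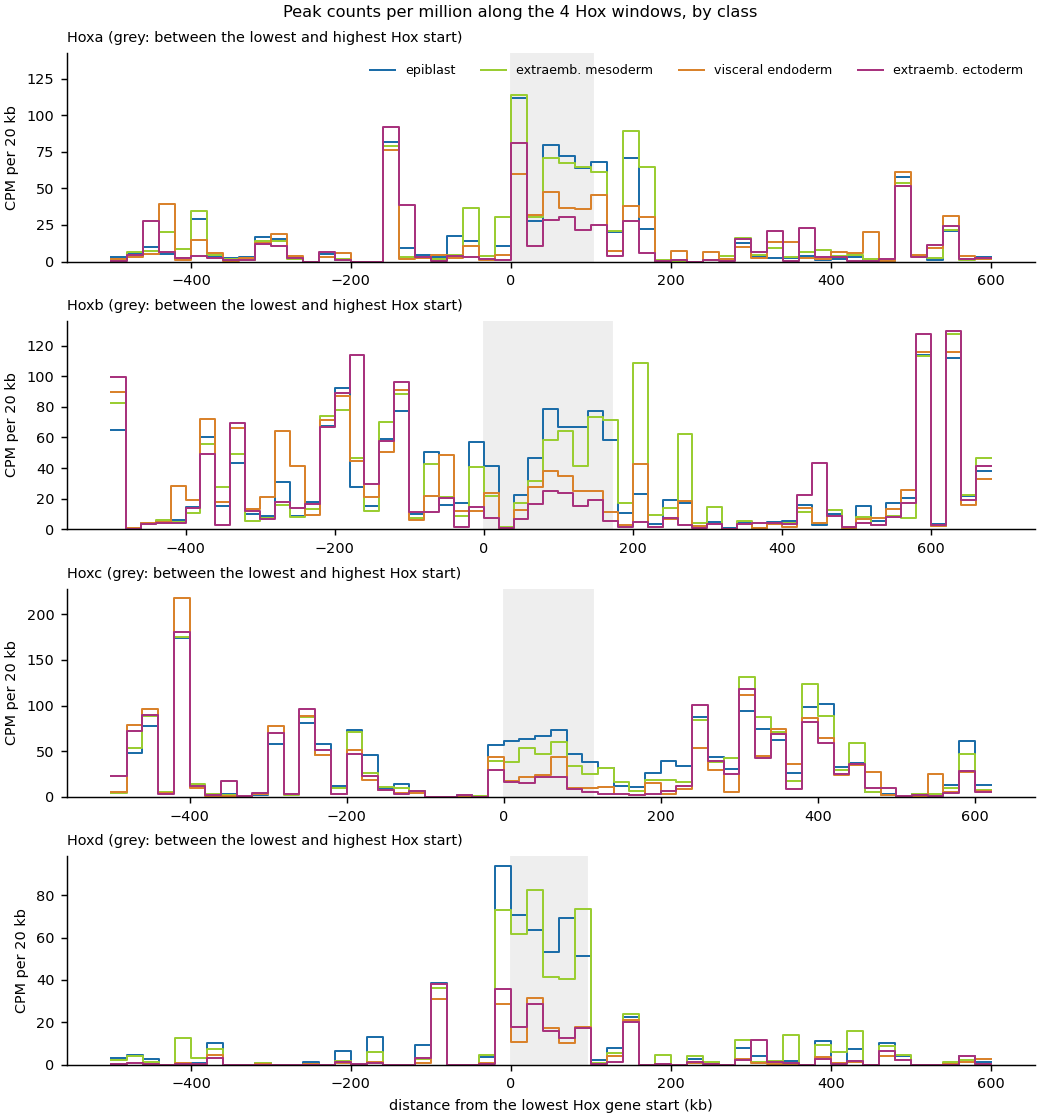
Peak counts in bins of 20 kb along each Hox window, in CPM of the class, against the distance in kb from the lowest Hox gene start, for 4 classes; grey marks the stretch between the lowest and highest Hox start. Inside the Hoxc and Hoxd clusters the epiblast-like line stands above the visceral endoderm-like and extraembryonic ectoderm-like lines, while in the flanks the 4 lines mostly run together at the tall promoter bins.

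Inside the clusters, peaks were denser than in the flanks in all 4 cases, but by very different amounts. Peak counts per kb of genome were 694 inside Hoxa (chromosome 6) against 124 in its flanks, a ratio of 5.60 (5.53 to 5.67). They were 508 inside Hoxd (chr2:74668310-74762980) against 56.7, a ratio of 8.96 (8.81 to 9.11). The Hoxb ratio (chr11:96194316-96365752) was only 1.40 (1.38 to 1.41), from 417 against 299, and the Hoxc ratio (chr15:102921103-103034395) 1.28 (1.26 to 1.29), from 476 against 372. The spread therefore came from the flanks, which varied more between clusters (56.7 to 372 per kb) than the clusters did (417 to 694). With flanks of 250 kb the Hoxd ratio was 5.80. Promoter peaks of end genes whose midpoints lie beyond the outermost Hox start were counted in the flanks: those of Hoxd13 and Hoxd1, of Hoxb13 and Hoxb1 (both Hoxb1 peaks), of Hoxc4, and the taller of the 2 Hoxc13 peaks (chr15:102920460-102921326, 34.0 CPM over all kept nuclei).

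Peaks covered 32.9% of Hoxa, 24.8% of Hoxb, 24.9% of Hoxc and 22.5% of Hoxd, and 14.0%, 18.4%, 16.2% and 7.06% of their flanks in the same order. Per covered base, counts were 2.11, 1.68, 1.91 and 2.26 inside and 0.887, 1.62, 2.30 and 0.802 in the flanks, against 1.18 over all peaks. Hoxc was thus the cluster whose flank peaks held more counts per covered base than its inside peaks. The typical inside peak was well above the typical peak of the library: the median was 6.61 CPM in Hoxa, 4.74 in Hoxb, 6.44 in Hoxc and 8.31 in Hoxd, against 1.47 over all peaks. Flank medians were 1.31, 1.94, 3.58 and 0.939 CPM. The tallest inside peaks (24.1, 14.4, 15.6 and 22.0 CPM) nevertheless stayed below the tallest flank peaks (68.2, 79.3, 100.4 and 35.3 CPM).

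Those tallest flank peaks were promoters of broadly used genes, and they varied little between classes. The promoter peak of Cbx5 and Hnrnpa1 (chr15:103239297-103240466), which encode a heterochromatin protein and an RNA-binding protein, ran from 90.4 CPM in the epiblast-like to 127 in the extraembryonic mesoderm-like class. The peak of Atp5g1 (chr11:96075385-96076310), an ATP synthase subunit gene, ran from 68.8 to 91.1, and that of Skap2 (chr6:52012132-52013013), a signalling adaptor gene next to Hoxa, from 57.8 to 85.5. The Lnpk peak (chr2:74578500-74579370), which belongs to an endoplasmic reticulum protein gene next to Hoxd, ran from 29.4 to 41.5. Other flank peaks with the most counts were the promoters of Hibadh, Tax1bp1, Zfp652, Snx11, Nfe2l1, Tarbp2 with Map3k12, Atf7, Copz1 and Mtx2. The same count rule also took the Hoxd13 and Hoxd1 promoters and 1 peak away from any promoter, 13.1 kb from the noncoding RNA gene Halr1, described further on.

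The clusters were most open in the epiblast-like and primitive streak-like nuclei and least open in the extraembryonic ectoderm-like nuclei. Summed over the 155 inside peaks, the level was 1433 CPM in the epiblast-like class (fold 1.48, 1.46 to 1.50), 1415 in the primitive streak-like (1.39), 1231 in the extraembryonic mesoderm-like (1.15), 1187 in the embryonic mesoderm-like (1.13), 1160 in the haemato-endothelial-like (1.08) and 952 in the anterior streak-like class (0.879). The visceral endoderm-like class had 631 CPM (0.553, 0.542 to 0.564), the parietal endoderm-like 624 (0.577) and the extraembryonic ectoderm-like 472 (0.419, 0.407 to 0.431). The epiblast-like level was 3.04 times (2.95 to 3.13) the extraembryonic ectoderm-like level. In this order, 3 pairs of neighbours did not differ beyond counting error: epiblast and primitive streak (ratio 1.01, 0.997 to 1.03), embryonic mesoderm and haemato-endothelial (1.02, 0.987 to 1.06), and visceral and parietal endoderm (1.01, 0.955 to 1.07).

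RNA clusters of the same class differed in level, in places by more than neighbouring classes did. The 2 epiblast-like RNA clusters had 1378 and 1538 CPM inside, and the 2 embryonic mesoderm-like ones 1298 (1274 to 1322) and 1080 (1059 to 1102). The extraembryonic mesoderm-like (1231) and haemato-endothelial-like levels (1160) lay between the latter. The 3 visceral endoderm-like clusters had 550, 651 and 797 CPM, so the most open of them still lay below the less open anterior streak-like cluster (940). Outside the Hox windows, the summed fold of all promoter peaks and of all non-promoter peaks was between 0.951 and 1.05 in each of the 9 classes; since CPM fixes each class's total, these sums show how counts were divided between the 2 kinds of peak and not their amount.

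**Figure D2:**
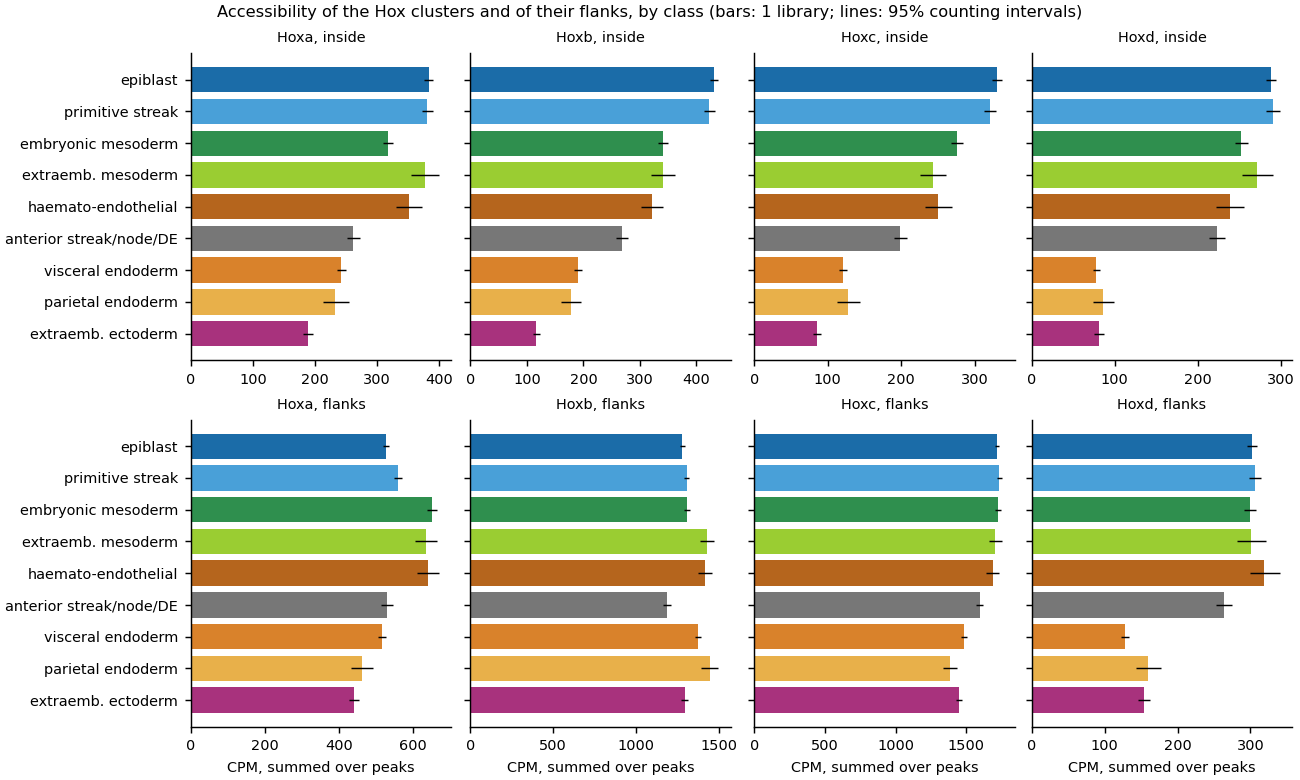
Summed CPM of the peaks inside each Hox cluster (upper row) and in its flanks (lower row) for the 9 classes; bars are the 1 library and lines are 95% counting intervals. Inside, visceral endoderm-like, parietal endoderm-like and extraembryonic ectoderm-like bars are the lowest in each cluster, whereas of the flanks those of Hoxd show the widest gap between classes (highest over lowest 2.49).

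Each cluster showed this split, with Hoxa the mildest. Inside Hoxa, the epiblast-like, visceral endoderm-like and extraembryonic ectoderm-like levels were 383, 242 and 189 CPM, so that the first was 2.03 times (1.93 to 2.13) the last. Hoxb had 431, 191 and 117 CPM (3.69, 3.48 to 3.92) and Hoxc 331, 121 and 85.4 CPM (3.87, 3.62 to 4.15). In Hoxd, with 288, 77.5 and 80.9 CPM, both low levels lay close together, and the widest gap was primitive streak over visceral endoderm, 3.75-fold (3.53 to 3.99). The anterior streak-like class was below the other nuclei in Hoxa (0.828), Hoxb (0.845) and Hoxc (0.830) but not in Hoxd (1.06, 1.02 to 1.11).

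In the flanks the classes lay much closer together. All 665 flank peaks summed to between 3338 CPM in the extraembryonic ectoderm-like and 4070 in the extraembryonic mesoderm-like class, a ratio of 1.22 (1.19 to 1.25). The Hoxb flanks were slightly higher than elsewhere in visceral endoderm-like nuclei (fold 1.06, 1.04 to 1.07), the opposite of the cluster they surround (0.574). The Hoxd flanks, by contrast, followed their cluster in part: they were at 0.479 (0.458 to 0.500) in visceral endoderm-like and 0.598 in extraembryonic ectoderm-like nuclei, and 1.30 in epiblast-like nuclei. Their highest class was the haemato-endothelial-like one, 2.49 times (2.31 to 2.69) the visceral endoderm-like level. This rank leaned on 1 bin of 20 kb, at 340 kb from the lowest Hox start. That bin held 36.5 CPM in haemato-endothelial-like, 1.93 in epiblast-like and 0.519 in visceral endoderm-like nuclei. The rank was not recomputed without it. Inside Hoxd the haemato-endothelial-like class had 238 CPM, below the 291 of primitive streak-like nuclei. The Hoxd flanks include the Hoxd13 promoter peak (28.5 CPM epiblast-like, 6.49 visceral endoderm-like, 10.9 extraembryonic ectoderm-like) and that of Hoxd1 (20.5, 9.64 and 10.9).

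Promoters inside the clusters held more of their openness in the low classes than the peaks between them, as did promoters over the whole library. In extraembryonic ectoderm-like nuclei, for instance, the median fold was 0.400 for inside promoter and 0.272 for inside non-promoter peaks. Over all peaks it was 0.914 and 0.574. The 66 promoter peaks (within 1000 bases of a gene start) had a fold of 0.667 (0.650 to 0.685) in visceral endoderm-like, 0.689 in parietal endoderm-like and 0.514 in extraembryonic ectoderm-like nuclei. The 89 other inside peaks had 0.434 (0.421 to 0.448), 0.459 and 0.318. In epiblast-like nuclei the 2 kinds were at 1.42 and 1.55. By position along the cluster, the fold in extraembryonic ectoderm-like nuclei differed little. It was 0.440 for peaks nearest to paralog groups 1 to 4, 0.412 for groups 5 to 9 and 0.399 for groups 10 to 13. Visceral endoderm-like nuclei varied more, with 0.496, 0.614 and 0.550, and epiblast-like nuclei had 1.51, 1.47 and 1.47.

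Peak by peak, the low classes were low across most of the clusters. Of the 155 inside peaks, all with at least 100 counts, 152 were lower in extraembryonic ectoderm-like than in other nuclei. Being lower at all was common there: the median fold over all peaks was 0.612, and 496 of the 665 flank peaks were lower. By more than 2-fold, 118 inside peaks were lower, against 42.9% of all 222075 peaks of that depth. In visceral endoderm-like nuclei 96 of 155 were past 2-fold lower, with 41.2% over all peaks, and in parietal endoderm-like nuclei 99 of 155, with 40.4%. The flanks were near these backgrounds, with 308, 261 and 264 of 654 peaks. The median fold of inside non-promoter peaks was 0.272 in extraembryonic ectoderm-like, 0.249 in visceral endoderm-like and 0.273 in parietal endoderm-like nuclei, against 0.574, 0.589 and 0.631 for all non-promoter peaks. For inside promoter peaks it was 0.400, 0.520 and 0.482, against 0.914, 0.938 and 0.915.

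A stricter count took peaks with at least 50 counts both in the class and in the other nuclei, which keeps fewer members where a class is low. By this rule 29 of 60 inside peaks were past 2-fold lower in extraembryonic ectoderm-like nuclei, with 6.29% over all peaks, and 34 of 91 in visceral endoderm-like nuclei, with 11.6%. Past 2-fold higher were 23 of 154 inside and 45 of 451 flank peaks in epiblast-like nuclei, with 13.7% over all peaks, so that neither share was far from the background. Primitive streak-like nuclei had 4 of 151 and 16 of 340 (4.03% over all peaks), embryonic mesoderm-like nuclei 2 of 150 and 60 of 357 (19.3%), and anterior streak-like nuclei 1 of 120 and 25 of 257 (16.7%). Extraembryonic mesoderm-like nuclei had 6 of 49 and 22 of 109 (15.4%), and haemato-endothelial-like nuclei 3 of 50 and 21 of 111 (16.9%). In visceral endoderm-like nuclei it was 2 of 91 inside against 60 of 283 in the flanks (31.5%), in parietal endoderm-like nuclei 0 of 10 and 14 of 58 (28.8%), and in extraembryonic ectoderm-like nuclei 0 of 60 and 41 of 191 (32.1%).

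**Figure D3:**
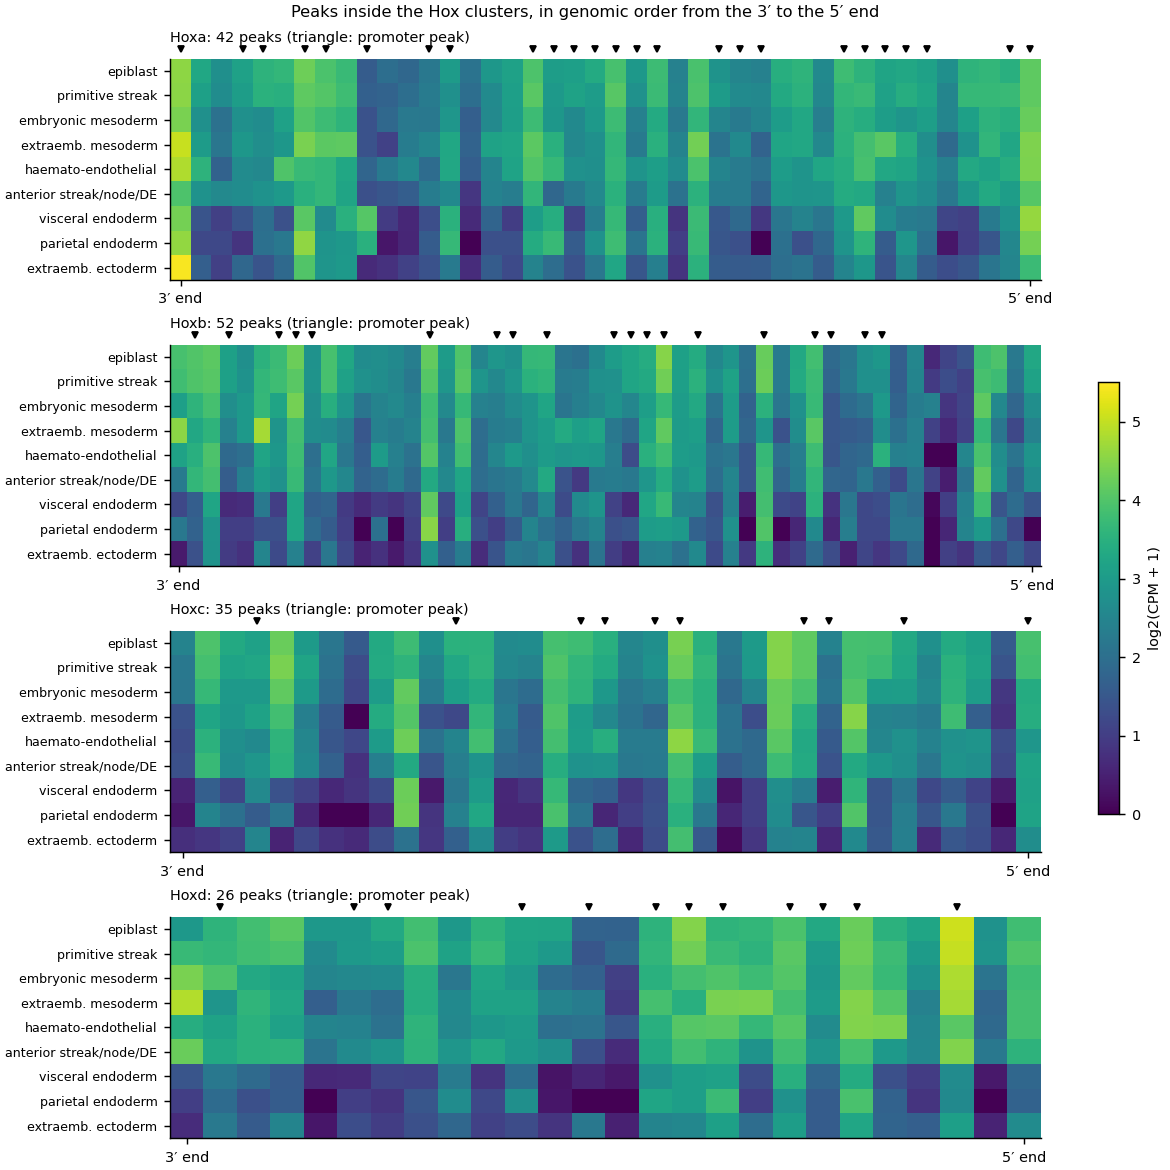
Level of each of the 155 inside peaks as log2(CPM + 1) in the 9 classes, in genomic order from the 3′ to the 5′ end of each cluster; triangles mark the 66 promoter peaks. The bottom 3 rows are darker along most of each cluster, with bright exceptions such as the Hoxa13 end in the visceral endoderm-like row (23.9 CPM).

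Among the inside peaks with the most counts, the Hoxd11 promoter (chr2:74681548-74682371), whose sequence is shown above, had the steepest split. It was at 32.9 CPM in epiblast-like, 31.3 in primitive streak-like, 27.3 in embryonic mesoderm-like, 26.3 in extraembryonic mesoderm-like, 21.0 in anterior streak-like and 16.1 in haemato-endothelial-like nuclei, and at 7.66 in extraembryonic ectoderm-like, 5.29 in visceral endoderm-like and 5.12 in parietal endoderm-like nuclei. The 3 lowest classes did not come near the other 6. A peak 1.72 kb from the Hoxc11 start, within that gene (chr15:102955689-102956614), behaved alike, from 21.5 CPM in the epiblast-like to 4.46 in the extraembryonic ectoderm-like class.

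The Hoxa13 promoter (chr6:52260475-52261266), the most CG-rich of the 4 shown, did not follow this split. It was highest in visceral endoderm-like nuclei (23.9 CPM, 21.6 to 26.4, against 16.8 in all others) and lowest in extraembryonic ectoderm-like nuclei (12.4), with epiblast-like and primitive streak-like nuclei both at 16.5. The Hoxb4 promoter (chr11:96318299-96319166) was at 22.0 CPM in parietal endoderm-like, 17.1 in epiblast-like and 16.9 in visceral endoderm-like nuclei, and at 5.93 in extraembryonic ectoderm-like nuclei. Hoxb9 (chr11:96271615-96272349) was at 18.4 CPM in primitive streak-like nuclei and lowest, 6.34, in extraembryonic mesoderm-like nuclei, below the extraembryonic ectoderm-like level of 10.7. The Hoxb7 promoter (chr11:96285090-96285959) ranged from 21.6 CPM (epiblast-like) to 4.46 (extraembryonic ectoderm-like), that of Hoxd3 (chr2:74711797-74712710) from 21.3 to 4.83, and that of Hoxd10 (chr2:74691257-74692083) from 21.4 (extraembryonic mesoderm-like) to 8.50. Hoxc10 (chr15:102966236-102967111) was highest in haemato-endothelial-like nuclei (22.7 CPM) and lowest in parietal endoderm-like nuclei (10.2).

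A few inside peaks went against the class they were measured in, and they were singled out after their values were seen. In extraembryonic ectoderm-like nuclei, a Hoxd4 promoter peak (chr2:74720767-74721672) was at 3.62 against 1.92 CPM (1.89-fold, 1.29 to 2.69). Over its 2 promoter peaks together, however, Hoxd4 was lower in that class, at 5.04 CPM against 8.23 over all kept nuclei. A peak between Hoxb13 and Hoxb9 (chr11:96223617-96224451) was near 1 CPM both there and elsewhere (1.08-fold, 0.504 to 2.06).

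In visceral endoderm-like nuclei 2 inside peaks were past 2-fold higher. The promoter of the noncoding gene Gm29430, within Hoxa (chr6:52183023-52183929), was at 15.5 CPM against 2.35 (6.62-fold, 5.53 to 7.92), and at 2.05 in epiblast-like nuclei. A peak 11.9 kb from Hoxb13 (chr11:96205776-96206606) was at 4.38 against 1.70 CPM (2.58-fold, 1.93 to 3.41). Several single promoter peaks were modestly higher there too, among them peaks of Hoxa10 (1.59-fold, 1.39 to 1.81), Hoxa4 (1.55), Hoxa5 (1.50), Hoxa13 (1.42) and Hoxb4 (1.21). Over its 3 promoter peaks together, however, Hoxa5 was lower there, at 18.3 CPM against 23.5 over all kept nuclei and 29.5 in epiblast-like nuclei.

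Extraembryonic mesoderm-like nuclei had 6 inside peaks past 2-fold higher, at the 3′ ends of Hoxb and Hoxd and elsewhere. A peak 2.62 kb from the start of Haglr, near Hoxd1 (chr2:74759822-74760733), was at 28.3 CPM against 9.02 (3.14-fold, 2.47 to 3.94), and embryonic mesoderm-like nuclei had 20.1 CPM there. A peak near Hoxb3 (chr11:96345814-96346695) was at 25.9 against 8.34 CPM (3.11-fold, 2.43 to 3.92). The peak 1.81 kb upstream of Hoxb1 (chr11:96363499-96364390) was at 22.3 CPM, then 14.0 in epiblast-like and 13.2 in primitive streak-like nuclei, 7.97 in haemato-endothelial-like, 7.62 in embryonic mesoderm-like and 3.75 in anterior streak-like nuclei, and at 1.30 in visceral endoderm-like and 0.315 in extraembryonic ectoderm-like nuclei. The other 3 were near Hoxb6 (3.22-fold), Hoxd9 (2.54) and at the promoter of Hoxa11os (2.52). Haemato-endothelial-like nuclei had 3 such peaks, near Hoxd10 (2.54-fold, 1.94 to 3.28), at the Gm53 promoter within Hoxb (2.38) and near Hoxa2 (2.04). In embryonic mesoderm-like nuclei the most unequal inside peak lay in the long gap between Hoxb13 and Hoxb9 (chr11:96228258-96229120), at 4.31 against 0.503 CPM (8.58-fold, 5.88 to 12.6).

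**Figure D4:**
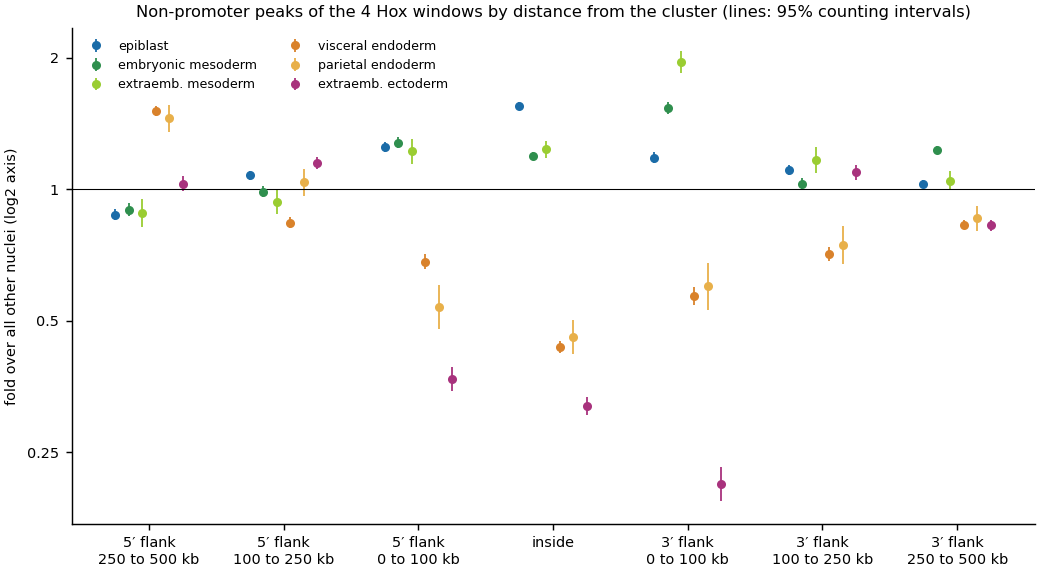
Fold of the summed non-promoter peaks over all other nuclei (log2 axis) for 6 classes, by side and distance from the cluster, for the 4 windows together; lines are 95% counting intervals. The extraembryonic ectoderm-like points are low inside (0.318) and within 100 kb on either side (0.212 and 0.368) and near 1 from 100 to 250 kb.

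The low level of the extraembryonic ectoderm-like class ran on past the cluster ends, but the summed flanks beyond 100 kb were near the level of other nuclei. On the 3′ side, the 68 non-promoter peaks within 100 kb were at 45.9 CPM in extraembryonic ectoderm-like nuclei (0.212, 0.193 to 0.232), lower in fold than inside the clusters. From 100 to 250 kb the fold was 1.09 (1.05 to 1.14), and from 250 to 500 kb 0.825. On the 5′ side the 3 bands had 0.368, 1.15 and 1.03. Each cluster showed the low band on its 3′ side: the fold was 0.187 at Hoxa, 0.209 at Hoxb, 0.225 at Hoxc and 0.260 at Hoxd. From 250 to 500 kb the Hoxd window had the lowest folds of the 4, with 0.493 on the 3′ and 0.261 on the 5′ side.

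Visceral endoderm-like nuclei had a shallower band, 0.569 (0.544 to 0.595) on the 3′ side and 0.682 on the 5′ side within 100 kb. Far out on the 5′ side, from 250 to 500 kb, they were higher than other nuclei (1.51, 1.47 to 1.55), as were parietal endoderm-like nuclei (1.45, 1.35 to 1.56). The 2 folds were 2.03 and 1.92 in the Hoxb window and 1.51 and 1.53 in the Hoxa window, while the Hoxd window had 0.355 and 0.339 in the same band.

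Mesoderm was highest just beyond the 3′ ends. Extraembryonic mesoderm-like nuclei had 387 CPM in the 3′ band within 100 kb (1.95, 1.84 to 2.07) and embryonic mesoderm-like nuclei 289 (1.53, 1.48 to 1.58), against 230 in epiblast-like nuclei (1.18). Beyond Hoxb1 the order was clearest: 217 CPM in extraembryonic mesoderm-like (2.86, 2.63 to 3.10), 133 in embryonic mesoderm-like (1.88) and 120 in haemato-endothelial-like nuclei (1.53), against 71.5 in epiblast-like nuclei (0.876, 0.834 to 0.921). Beyond Hoxc4 it was the epiblast-like class that was highest, with 98.3 CPM (1.61, 1.54 to 1.69). Beyond Hoxd1 the bins of 20 kb, over all their peaks, had no common order. The bin at 120 kb from the lowest Hox start was highest in primitive streak-like nuclei (9.11 CPM, against 5.44 in extraembryonic mesoderm-like). The bin at 180 kb was highest in extraembryonic mesoderm-like nuclei (4.53).

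The 2 highest folds of each class were all at flank peaks. The peak with the largest counts away from a promoter in the Hoxa flanks (chr6:52115670-52116527), 13.1 kb from Halr1, was at 34.0 CPM in embryonic mesoderm-like, 32.3 in extraembryonic mesoderm-like, 22.1 in anterior streak-like and 21.5 in primitive streak-like nuclei. It was at 10.8 in haemato-endothelial-like and 7.02 in epiblast-like nuclei, and at 5.58, 1.57 and 1.02 in visceral endoderm-like, extraembryonic ectoderm-like and parietal endoderm-like nuclei. This peak was therefore higher in the mesoderm classes than in the epiblast-like class, unlike the cluster it adjoins.

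The most unequal peak of the 820 was extraembryonic ectoderm-like and lay 6.92 kb from Gm44077, beside Skap2 (chr6:52019035-52020001): 29.9 CPM against 0.622 in all others (48.1-fold, 37.0 to 63.1). A further one was 25.5 kb from Gm44028 on the other side of Hoxa (chr6:52534968-52535878), at 17.3 CPM (27.2-fold). In the Hoxd upper flank, neighbouring peaks belonged to different classes. A haemato-endothelial-like peak (chr2:75019184-75020068) was at 21.4 against 0.746 CPM (28.7-fold, 20.4 to 40.3), an extraembryonic mesoderm-like peak close by (chr2:75011478-75012346) at 10.3 against 0.458 (22.5-fold, 13.8 to 36.0), and an embryonic mesoderm-like peak (chr2:75085937-75086818) at 13.2 against 0.650 (20.2-fold, 15.3 to 27.1). The extraembryonic mesoderm-like peak was also open in haemato-endothelial-like nuclei (7.26 CPM). An anterior streak-like peak lay 69.8 kb from Mtx2 in the same flank (chr2:74895212-74896050), at 5.53 against 0.317 CPM (17.4-fold, 11.2 to 27.4).

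Beyond Hoxb1 there was an extraembryonic mesoderm-like peak at 17.1 kb (chr11:96382438-96383172; 9.42 against 0.710 CPM, 13.3-fold) and a haemato-endothelial-like peak at 45.2 kb (chr11:96410482-96411397; 19.3 against 1.09 CPM, 17.7-fold). In the Hoxc lower flank, within the noncoding gene Gm36560, an embryonic mesoderm-like peak (chr15:102762818-102763470; 7.85 CPM, 18.0-fold) and an anterior streak-like peak (chr15:102818364-102819228; 10.9 CPM, 11.0-fold) stood apart from each other. The endoderm classes shared their peaks: one within Hibadh (chr6:52601451-52602304), a gene of valine breakdown, was at 20.4 CPM in visceral and 11.5 in parietal endoderm-like nuclei (15.5-fold in the former). Near Phospho1, one (chr11:95792831-95793382) was at 11.8 and 7.68 CPM, and another (chr11:95800176-95801093) at 6.20 and 20.7 (14.4-fold in parietal endoderm-like nuclei). A peak within Gip, the gene of an incretin hormone (chr11:96030328-96031126), was at 7.53 and 13.6.

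Epiblast-like and primitive streak-like peaks were less extreme. The 2 highest epiblast-like folds were 4.35 (3.29 to 5.75) at a peak 2.89 kb from Snx11 (chr11:96780046-96780859) and 4.28 (3.79 to 4.84) at one 55.6 kb from Gm38811 (chr6:51766223-51767069), where the level was 22.1 CPM in epiblast-like, 14.8 in primitive streak-like and 0.420 in extraembryonic ectoderm-like nuclei. The highest primitive streak-like folds were 3.07 near Phospho1 (chr11:95829401-95830103) and 2.54 near Gm28265 (chr15:103115094-103115975).

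In the other direction, a peak within Ttll6, a tubulin polyglutamylase gene (chr11:96140555-96141454), was the lowest in fold for both the epiblast-like (0.133, 0.0960 to 0.180) and the primitive streak-like class (0.190), with 33.0 CPM in visceral endoderm-like against 1.52 in epiblast-like nuclei. Another peak of that gene (chr11:96124167-96125071) had the lowest extraembryonic ectoderm-like fold (0.111, 0.0761 to 0.156), at 3.30 against 29.8 CPM. The second Cbx5 promoter (chr15:103214884-103215784) was at 3.25 CPM in visceral endoderm-like and 3.07 in parietal endoderm-like nuclei but at 24.0 in extraembryonic ectoderm-like and 28.3 to 40.2 in the other 6 classes (0.110 in visceral endoderm-like nuclei, 0.0821 to 0.146). An Amhr2 peak was the lowest for embryonic mesoderm-like nuclei (0.221). The lowest anterior streak-like fold (0.432, 0.296 to 0.611) was at the peak upstream of Hoxb1 described above, inside the cluster. For the other 3 classes, the lowest folds among peaks with enough counts were 0.540 (within Zfp385a, parietal endoderm-like), 0.662 (the Prr13 promoter, haemato-endothelial-like) and 0.682 (within Gm36560, extraembryonic mesoderm-like).

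Of the 39 Hox genes, 37 had at least 1 promoter peak, and Hoxc6 and Hoxd12 had none. Most promoter counts per cluster were held by Hoxa13 (5966), Hoxb7 (5010), Hoxc13 (10084) and Hoxd3 (5379), and fewest by Hoxa2 (1215), Hoxb2 (1045) and, among genes with a peak, Hoxc8 (1468) and Hoxd4 (1876). Compared with epiblast-like nuclei, 1 of the 37 promoters was higher in extraembryonic ectoderm-like nuclei, 3 in visceral endoderm-like and 4 in parietal endoderm-like nuclei. At 2-fold or more below the epiblast-like level were 25, 21 and 19 promoters in these classes. The epiblast-like class had the highest level at 17 promoters, the primitive streak-like at 9 and the extraembryonic mesoderm-like at 5. Promoters of other genes were not counted in this way, so these counts have no background here. Against all other nuclei, the median fold of all promoter peaks was 0.914, 0.938 and 0.915 in extraembryonic ectoderm-like, visceral endoderm-like and parietal endoderm-like nuclei. The group 13 promoters differed: Hoxc13 was at 52.6 CPM in epiblast-like and 48.2 in visceral endoderm-like nuclei, whereas Hoxd13 was at 28.5 and 6.49.

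**Figure D5:**
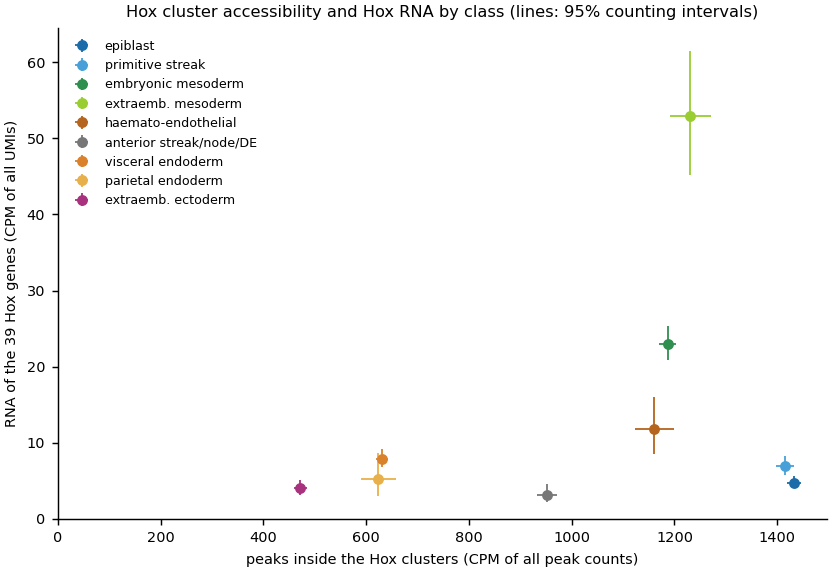
RNA of the 39 Hox genes (CPM of all UMIs of the class) against the summed CPM of the 155 inside peaks, for the 9 classes, with 95% counting intervals. The extraembryonic mesoderm-like point is highest in RNA (52.9) but lies below the epiblast-like and primitive streak-like points in accessibility, and the epiblast-like point is highest in accessibility (1433) with little Hox RNA (4.75).

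Hox RNA was sparse, and its order over the classes was not that of the peaks. All kept nuclei together had 1354 Hox UMIs (9.29 CPM of UMIs): 777 of Hoxb, 277 of Hoxa, 233 of Hoxd and 67 of Hoxc. Extraembryonic mesoderm-like nuclei had the most, 52.9 CPM (45.2 to 61.5), followed by embryonic mesoderm-like (23.0, 20.8 to 25.4) and haemato-endothelial-like nuclei (11.8, 8.51 to 16.0). Visceral endoderm-like nuclei had 7.90, primitive streak-like 6.88, parietal endoderm-like 5.24, epiblast-like 4.75 (3.99 to 5.60), extraembryonic ectoderm-like 4.04 (3.11 to 5.16) and anterior streak-like nuclei 3.17. The last 4 had overlapping intervals. Free RNA in droplets adds UMIs to every class and was not removed.

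Hoxb1, at the 3′ end of its cluster, led with 358 UMIs (26.4% of all Hox UMIs), and Hoxb1, Hoxb2 and Hoxb3 together made up 45.9%. Its RNA was at 13.8 CPM in extraembryonic mesoderm-like (10.0 to 18.5) and 11.0 in embryonic mesoderm-like nuclei (9.51 to 12.7), and at 1.83 in primitive streak-like, 0.808 in epiblast-like, 0.540 in visceral endoderm-like and 0.442 in extraembryonic ectoderm-like nuclei. Its promoter peaks were at 22.6 CPM in primitive streak-like, 18.3 in epiblast-like, 18.1 in embryonic mesoderm-like and 15.2 in extraembryonic mesoderm-like nuclei, and at 3.02 and 2.36 in visceral endoderm-like and extraembryonic ectoderm-like nuclei. The embryonic mesoderm-like and epiblast-like classes thus had nearly equal promoter levels, with RNA levels whose intervals were far apart. Hoxd1, with 92 UMIs the most of its cluster, likewise had its highest RNA in extraembryonic mesoderm-like nuclei (6.89 CPM, 4.32 to 10.4), against 0.337 in epiblast-like nuclei, with promoter levels of 27.7 and 20.5 CPM.

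Of the 17 Hox genes with at least 20 UMIs, 10 had their highest RNA level in extraembryonic mesoderm-like nuclei, and none in epiblast-like or primitive streak-like nuclei. The matching share over all genes was not counted. Of the 10, Hoxa3 rested on 3 UMIs in that class (0.939 CPM, 0.194 to 2.74) and Hoxa10 on 4 (1.25, 0.341 to 3.21). Both intervals overlap those of other classes. In visceral endoderm-like nuclei 2 were highest, Hoxa7 with 28 of its 53 UMIs (1.16 CPM) and Hoxb7 with 18 of its 28 (0.748). That class also held 31 of the 55 UMIs of Hoxb4 (1.29 CPM, 0.875 to 1.83, against 0.202 in epiblast-like nuclei), whose level in parietal endoderm-like nuclei was 1.40 from 4 UMIs. It held 14 of the 26 UMIs of Hoxc13 (0.582), the leading gene of Hoxc, which is counted as highest in extraembryonic mesoderm-like nuclei on 2 UMIs (0.626, 0.0758 to 2.26). The promoters of Hoxb4, Hoxa7, Hoxc13 and Hoxb7 in visceral endoderm-like nuclei were at 16.9, 10.0, 48.2 and 20.6 CPM, against 17.1, 12.6, 52.6 and 31.2 in epiblast-like nuclei. Hoxa6 had no UMI over all kept nuclei, where 3 UMIs, the limit taken for a count of 0, are 0.0206 CPM. Overlapping Hox transcripts may share reads, so that neighbouring genes are not fully separate measurements.

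Among 17 genes of known Hox inputs (caudal-type factors, Wnt, Fgf and retinoic acid signals and Hox cofactors), 5 were highest in embryonic mesoderm-like nuclei and 3 each in primitive streak-like and extraembryonic ectoderm-like nuclei. One of the last is Cyp26a1 (178 RNA CPM), whose enzyme breaks down retinoic acid and so works against this input. Cdx2 was also a marker that named the extraembryonic ectoderm-like class, and Wnt8a one that named the primitive streak-like class. Their high levels there were thus partly fixed by the naming. T, Wnt3 and Fgf8 were on the primitive streak marker list too, but each was highest in another class. How all genes divide among the classes in this way was not counted. Lef1, a mediator of Wnt signals, ran from 1136 RNA CPM in embryonic mesoderm-like to 14.4 in extraembryonic ectoderm-like nuclei and was also low in visceral endoderm-like nuclei (27.0). The Hox cofactor Meis2 ran from 491 to 4.35 over the same 2 classes. The reverse order was seen for Cdx2, a caudal-type Hox inducer and a known trophoblast factor, at 85.5 in extraembryonic ectoderm-like, 27.9 in extraembryonic mesoderm-like and 4.81 in epiblast-like nuclei, and for the cofactor Meis1 (102, 43.8 and 2.63). Of 15 chromatin genes, the Polycomb enzyme gene Ezh2 ran from 268 to 426 and its partner Suz12 from 268 to 493, whereas the Polycomb reader Cbx7 was at 297 in parietal endoderm-like and 256 in visceral endoderm-like nuclei, 63.7 in epiblast-like and 10.3 in extraembryonic mesoderm-like nuclei. What part any of these has in the accessibility of the clusters was not tested.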

How the data were processed

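Nuclei of pooled mouse embryos at embryonic day 7.0 were read in 1 multiome run, per the labels' protocols, giving 1 RNA and 1 accessibility library over the same 15341 barcodes. Per the file headers and the submitters' processing notes, Cell Ranger ARC 2.0.0 on mm10 made the deposited counts: whole-number UMI counts for 32285 genes and cut-site counts for 229480 peaks called on the whole library, not normalized. Of nonzero peak values 86.4% were even, so fragments were estimated as the count divided by 2, rounded up. The caller's settings are not given in the sources used here.

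Barcodes needed 1000 UMIs, 500 genes, 1000 peak counts and a mitochondrial share no higher than 20% (13896 passed), and doublets scored on simulated doublets in the RNA were removed (1154 calls over all barcodes). Clustering with scanpy 1.11.5 used 2000 variable genes without Hox genes, 30 principal components, 15 neighbours and Leiden resolution 1 (leidenalg 0.10.2). Clusters were named from marker lists; the scoring rule was set after the data were seen, so shares may differ from other annotations. Peaks were inside or in a flank by midpoint; a peak is a promoter peak within 1000 bases of a start. Gene bodies are RefSeq extents (exon or intron not resolved). Intervals are exact Poisson or Clopper-Pearson, on fragments. Those of ratios were tested on simulated Poisson fragments with known folds. The simulation did not cover the estimate of fragments from counts, spread between nuclei or the lowest counts reported here.

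Named peaks were the 3 inside and 2 per flank of most counts in each cluster, and per class the 2 highest and 1 lowest fold among members with at least 50 counts on both sides. The members and lists were chosen with earlier results of these data known. Alternatives are given in the closing section. Some of the items this rule names are not reported here.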

Additional observations from a re-analysis of the deposited data

How the results depend on the processing

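No paired analysis was possible because there is 1 library per assay, and no replicate could be left out. The order of the clusters by inside-to-flank density (Hoxd, Hoxa, Hoxb, Hoxc) was the same under each setting below. For Hoxa, Hoxb, Hoxc and Hoxd the ratio was 5.87, 1.44, 1.33 and 9.28 with estimated fragments, 4.69, 1.46, 1.33 and 5.80 with flanks of 250 kb, and 5.20, 1.49, 1.40 and 12.4 with the inside extended by 10 kb on each side.

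For inside accessibility no class changed side. With minima of 2000 UMIs and peak counts, the epiblast-like fold was 1.50 and the primitive streak-like 1.32. With doublet calls kept, the folds were 1.18 in embryonic mesoderm-like, 0.921 in anterior streak-like, 1.08 in extraembryonic mesoderm-like, 0.702 in visceral endoderm-like and 0.518 in extraembryonic ectoderm-like nuclei. At resolution 0.5 they were 1.53 in epiblast-like, 1.37 in primitive streak-like and 0.593 in visceral endoderm-like nuclei, and no extraembryonic mesoderm class was found. With 20 principal components they were 1.61 in epiblast-like, 1.26 in primitive streak-like, 1.11 in embryonic mesoderm-like and 0.856 in anterior streak-like nuclei. With Hox genes among the variable genes they were 1.64 in epiblast-like, 1.24 in primitive streak-like and 1.09 in extraembryonic mesoderm-like nuclei. Scaled by promoter peaks outside the windows they were 1.50 in epiblast-like, 1.18 in embryonic mesoderm-like, 0.924 in anterior streak-like and 0.530 in visceral endoderm-like nuclei, and the anterior streak-like flank fold changed from 0.954 to 1.003. The cause of these moves was not tested.

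Counts of member peaks past 2-fold moved more, within these ranges over the alternatives: lower in visceral endoderm-like nuclei 41 to 357 (main 81), lower in extraembryonic ectoderm-like nuclei 48 to 426 (main 48), lower in parietal endoderm-like nuclei 0 to 363 (main 0) and higher in epiblast-like nuclei 68 to 138 (main 68). The counts higher also moved by over 1.5 times in primitive streak-like (10 to 26, main 20), anterior streak-like (25 to 48, main 26), extraembryonic mesoderm-like (24 to 82, main 28), haemato-endothelial-like (22 to 86, main 24) and parietal endoderm-like nuclei (11 to 64, main 14). The counts lower did so in epiblast-like (19 to 103, main 20), primitive streak-like (4 to 97, main 11), embryonic mesoderm-like (11 to 82, main 14), anterior streak-like (1 to 95, main 4), extraembryonic mesoderm-like (0 to 149, main 0) and haemato-endothelial-like nuclei (0 to 144, main 0). In each class the largest count lower came with the minimum of 100 counts, which tests more peaks (155 inside and 654 flank peaks). Over all peaks of that depth, 42.9% were this low in extraembryonic ectoderm-like, 41.2% in visceral endoderm-like and 40.4% in parietal endoderm-like nuclei. That share was 15.7% (anterior streak-like) to 30.5% (haemato-endothelial-like) in the other classes. No share over all peaks is given here for the other alternatives or for the ranges of counts higher. Depth limits the small classes: of 155 inside peaks, 10 could be counted in the parietal endoderm-like and 49 in the extraembryonic mesoderm-like class.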

Other observations

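The 7 RNA clusters left without a class name had inside levels between 450 and 1420 CPM. Of these, 3 had raised markers of a class but also those of a rival: cluster 10 (extraembryonic ectoderm, with ectoplacental cone and giant cell), cluster 11 (anterior streak, node and definitive endoderm, with parietal endoderm) and cluster 12 (anterior ectoderm, with epiblast). Cluster 17 (233 nuclei, led by Notum and Ano5) was at 1420 CPM over the 155 inside peaks and 18.9 CPM of Hox RNA. Cluster 12 (329 nuclei) had 1406 and 3.78, and cluster 6 (792 nuclei of low depth, median 1768 UMIs) had 1066 CPM and 13.1. Cluster 10 (460 nuclei, led by the placental genes Ascl2, Plac1 and Tfap2c) was at 450 and 3.45, with intervals that overlap those of the extraembryonic ectoderm-like class (429 to 472 against 459 to 485 for the peaks). Cluster 11 (417 nuclei, led by Sfrp5 and Gckr) had 586 CPM and 7.49, and the 13 nuclei of cluster 21, led by the placental hormone gene Prl3d1, 596 CPM (479 to 733). Cluster 19 (95 nuclei, median 26705 UMIs) had 951 CPM and 7.59.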
